A study of Salmo salar with 20 samples.

Results

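Atlantic salmon fed saponins with pea protein concentrate were compared with salmon fed saponins with horse bean meal, the pair of legume protein sources among the 5 plant proteins of the study. The members are the 4 arrays of pea protein fish with saponins (PPC + S) and the 4 arrays of horse bean fish with saponins (HBM + S), 8 of 20 arrays in all, chosen by the protein source in their titles. Each array held RNA of the distal intestine of 1 fish in 1 colour and, in the other, pooled RNA of 12 fish fed that diet with no saponins added. The fish were post smolts of 270 g on average, and both diets had 2 g/kg of soyasaponins added and were fed for 80 days. The paper proposes that the pea protein itself may have held saponins, while little was expected in the other sources. Total saponin may thus differ between the diets, and its part in the results was not tested. The paper also proposes that added saponins are not enough, and that another component or factor is needed for inflammation. Pea protein made up 33% of the dietary protein and horse bean meal 21%, so that the protein source and its level cannot be told apart. The pea protein diet also held DL-methionine, monocalcium phosphate and tapioca, which the horse bean diet did not. Fish meal and oil levels differed too, and the part of these ingredients was not tested. Fish came from 2 tanks per diet, 2 array fish from each, but the tank of each fish is not named, so that no test accounts for shared tanks, and p-values may come out too low. Each diet had a slide of its own, and slide and diet cannot be told apart either.

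Saponins are plant glycosides whose soap-like molecules bind membrane sterols. The distal intestine of salmon takes up protein in large vacuolated enterocytes, and it is the segment in which legume feeds are known to bring on enteritis. Pea and horse bean are both legumes.

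All values below are log2 ratios of a fish over the pool of its own diet, as the authors processed them, with the spots of each probe averaged. A value of 1 is thus a level 2 times that of the pool. The difference is the PPC + S mean minus the HBM + S mean, which sets the ratio on pea protein against the ratio on horse bean. A probe was called when this difference exceeded 1.6-fold with a Benjamini-Hochberg adjusted p under 0.05 in limma. Unless a block is named, calls and adjusted p come from fits without a block. The spread among the fish of each pool is not part of the test.

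The named genes come from the study's published gene lists, which were chosen on these PPC + S arrays. Their PPC + S values and their differences are therefore a description and no independent evidence of direction, while their HBM + S values were not used in that choice. Of 256 published entries, 234 were tied to 1 probe by their fold change and standard error, and 233 of those were tested. Each single-gene name rests on that match. When the standard errors were shifted by 0.05, 21 of the 256 entries still found a probe. Of 15 genes given by accession number, 4 were found in the probe names. The value match gave the same probe for arginase-2 and for medium chain fatty acyl-CoA hydrolase. It gave another probe for the sulfate transporter and for MHC class I.

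The direction of the ratios follows the authors' processed values. The processed columns of fish 1 and 3 of both diets, 4 of the 8 columns, run against the dyes stated for their arrays, and each column correlated with its array at 0.92 to 0.99 in size. In this direction the PPC + S fish correlated with each other at 0.47 to 0.86 over the probes tested. The HBM + S fish correlated at 0.39 to 0.57 within an orientation and at -0.28 to -0.19 between orientations. Between orientations alone, the PPC + S fish correlated at 0.47 to 0.54. With the dyes as stated, these PPC + S values would turn negative and the HBM + S values between orientations positive. The stated dyes and the processed values thus disagree, and which is right was not tested. With the dyes as stated no probe was called by limma, and 125 passed 1.6-fold at an unadjusted p under 0.05.

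In the direction of the processed values, the PPC + S mean lay beyond 1.6-fold of its pool at 1502 probes and the HBM + S mean at 124. With the dyes as stated these were 443 probes in PPC + S and 291 in HBM + S. Of 18069 probes tested, 203 were called (1.12%), of which 108 were higher in PPC + S (0.598%) and 95 lower (0.526%). With the fish number as a block, 604 probes were called (3.34%), 271 higher (1.5%) and 333 lower (1.84%), and 180 of the 203 were among them. All 203 had values in 8 fish, and in all 203 the 4 PPC + S fish lay apart from the 4 HBM + S fish, which was so for 12.4% of the 17055 probes with 8 values (PPC + S higher at 6.49%, lower at 5.88%). Without adjustment of p, limma passed 1342 probes. The methods' t-test, which the study ran on 1 diet against its pool and which was used here in its form for 2 groups, passed 1083. After quantile normalization 340 were called, 140 higher and 200 lower. The count was 47 without PPC + S fish 2 and 337 without PPC + S fish 3, and lay between these without any other fish.

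The PPC + S mean alone was beyond 1.6-fold at 155 of the 203 probes, the HBM + S mean alone at 3, and neither at 40. Both were beyond it in opposite directions at 3 probes and in the same direction at 2. The 108 probes called higher had a median ratio of 0.99 in PPC + S and -0.12 in HBM + S, and the 95 called lower had -1.03 in PPC + S and 0.10 in HBM + S. Over all probes tested the medians were 0.01 in PPC + S and 0.00 in HBM + S.

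**Figure D1:**
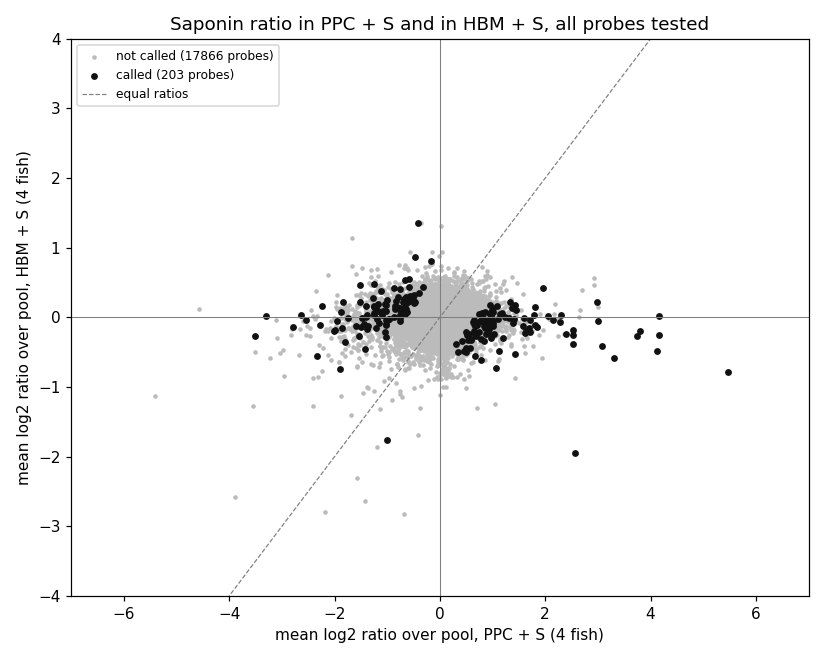
Mean log2 ratio over the pool in PPC + S (horizontal axis, 4 fish) and in HBM + S (vertical axis, 4 fish) for each of 18069 probes tested; black points are the 203 called probes, and the dashed line marks equal ratios. Most black points spread along the horizontal axis and lie near 0 on the vertical one.

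Over all probes tested the spread was of like size in both diets, with a median SD among fish of 0.17 in PPC + S and 0.19 in HBM + S. At the 203 called probes it was 0.24 and 0.22. Many genes described below spread more widely in PPC + S, such as interleukin-22 (SD 1.28 against 0.06) and aquaporin-8 (1.16 against 0.15). Others spread more widely in HBM + S, such as cysteine dioxygenase type 1 (0.71 in PPC + S against 2.21). The PPC + S arrays 2 and 4 had wider ratios, with SDs over the spots of 0.60 and 0.65, against 0.39 and 0.38 for PPC + S arrays 1 and 3. The HBM + S arrays lay between 0.35 and 0.41. Arrays 2 and 4 differ from arrays 1 and 3 in orientation, and the part of this in the results was not tested beyond the values within each orientation. The share of probes well above background was 55.5% to 77.5% in the channels of these 8 arrays, and precision is limited by having 4 arrays a diet.

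Counts of calls in each published group stand beside 1.12% of all 18069 probes, or 3.34% with the block. Without adjustment, limma passed 1342 of all probes and the methods' t-test 1083. Inflammatory mediators and transducers were called higher in PPC + S at 8 of 23 tested members and lower at none. With the block 13 were higher and 1 was lower. The 22 members listed as increased had a median ratio of 1.19 in PPC + S and -0.06 in HBM + S. In HBM + S, 6 of these 22 had a mean above 0. Interleukin-22, a cytokine that acts on epithelial cells in mammals, stood at 2.48, 4.15, 1.43 and 3.94 in the 4 PPC + S fish, against 0.02, -0.12, -0.03 and -0.09 in the 4 HBM + S fish. The lowest PPC + S fish was far above every HBM + S fish, and the difference was 3.06 ± 0.56 (SE), or 8.32-fold, with an adjusted p of 0.048. Its probe was well above background on only 2 HBM + S arrays in the fish's channel and on 1 in the pool's.

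Chemokines, which attract leukocytes, stood in the list in both directions. Chemokine CK-1, a CC chemokine known from trout, was at 1.93, 2.88, 1.49 and 2.32 in PPC + S fish and at -0.22, 0.05, -0.02 and 0.07 in HBM + S fish. The groups did not overlap, and the difference was 2.19 ± 0.27 (adjusted p = 0.016). C-C motif chemokine 19-1, whose mammalian counterpart guides lymphocytes, was at 1.28, 1.89, 0.91 and 2.78 in PPC + S fish and within -0.24 to -0.14 in HBM + S fish, a difference of 1.93 ± 0.36 (adjusted p = 0.049). All PPC + S fish were above their pool here and all HBM + S fish below theirs. C-C motif chemokine 21, listed as decreased, was at -0.36, -0.91, -0.90 and -1.46 in PPC + S fish and at 0.41, -0.32, 0.39 and -0.23 in HBM + S fish. Its groups did not overlap, and its difference of -0.97 ± 0.26 was called with the block only (adjusted p = 0.11, with the block 0.037). The TNF decoy receptor, which binds its ligand without passing on a signal, was at 1.84, 2.63, 1.66 and 3.10 in PPC + S fish and at -0.44, 0.34, 0.22 and 0.00 in HBM + S fish (difference 2.27 ± 0.33, adjusted p = 0.027).

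Regulators of inflammatory transcription were also called. Transcription factor jun-B, a subunit of AP-1, was at 1.04, 1.1, 0.53 and 1.59 in PPC + S fish and at -0.77, -0.45, -0.83 and -0.84 in HBM + S fish. It rose above the pool in every PPC + S fish and lay below the pool in every HBM + S fish, and the difference was 1.79 ± 0.21 (adjusted p = 0.013). Suppressor of cytokine signaling 1, an inhibitor of cytokine receptor signals, was at 1.53, 1.6, 0.76 and 1.62 in PPC + S fish and at -0.33, -0.08, -0.09 and 0.16 in HBM + S fish (1.46 ± 0.21, adjusted p = 0.025). The NF-kappa-B p100 subunit differed by 1.12 (adjusted p = 0.0083) and NF-kappa-B inhibitor epsilon by 0.91 (adjusted p = 0.035). Annexin A1, a calcium-dependent phospholipid-binding protein, was not called: PPC + S fish had 3.14, 4.76, 3.03 and 0.79, and HBM + S fish 0.50, 0.61, 0.29 and 0.49 (difference 2.46 ± 0.71, adjusted p = 0.12). Arachidonate 5-lipoxygenase-activating protein, which serves leukotriene synthesis, differed by 1.72 without passing the test (adjusted p = 0.065).

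Among proteases, inhibitors and T-cell genes, 3 of 11 members were called, all higher in PPC + S. E3 ubiquitin-protein ligase LINCR, an enzyme that attaches ubiquitin to proteins, was at 4.02, 3.94, 4.39 and 4.31 in PPC + S fish and at -0.06, 0.02, 0.04 and 0.11 in HBM + S fish. The fish of a diet differed little, and the difference of 4.14 ± 0.12, or 17.6-fold, had the smallest adjusted p among the named genes (7.3e-06). The antigen receptor of T cells was represented by its beta chain (T17T-22), which was at 1.14, 2.64, 3.53 and 2.80 in PPC + S fish and at -0.10, -0.25, -0.23 and -0.42 in HBM + S fish (2.78 ± 0.44, adjusted p = 0.034). The CTLA4-like protein, named for a receptor that restrains T cells, differed by 1.08 (adjusted p = 0.027). Genes of matrix remodelling had positive differences without being called, which were collagenase 3 (2.18, adjusted p = 0.11), metalloproteinase inhibitor 2 (2.15, adjusted p = 0.079), matrix metalloproteinase-9 (1.58, adjusted p = 0.21) and a further matrix metalloproteinase (1.28, adjusted p = 0.18).

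The effector genes, which are complement components, lectins and antimicrobial proteins, had 1 call among 15 members (5 with the block). This was FBPL4, a lectin or sugar-binding protein, which had 0.77, 3.41, 2.56 and 3.54 in PPC + S fish, against -2.84, -1.99, -1.63 and -1.33 in HBM + S fish. It was above the pool in every PPC + S fish and below the pool in every HBM + S fish, with a difference of 4.52 ± 0.62 (22.9-fold, adjusted p = 0.023). With the dyes as stated this difference was 0.62 and not called (adjusted p = 0.96). Of the group's 13 increased members, 4 of the 12 with 8 values had groups that did not overlap. Over all probes with 8 values, PPC + S lay apart and higher at 6.49%. Precerebellin-like protein, another lectin, differed by 2.60 (adjusted p = 0.17, with the block 0.041), nattectin, a C-type lectin, by 2.51 (adjusted p = 0.058) and complement factor D, a protease of the alternative pathway, by 1.95 (adjusted p = 0.16). Cathelicidin, an antimicrobial peptide, was at 0.55, 3.93, 0.87 and 3.30 in PPC + S fish. Its pool channel was not well above background on any HBM + S array, and 3 ratios were given there. It is counted among the members tested, with a difference of 2.12 (adjusted p = 0.25).

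Of the IFN-dependent genes, none of 10 members was called in limma with or without the fish number as a block. With orientation as a block 2 were called, receptor-transporting protein 3 (adjusted p = 0.042) and Jak1 (adjusted p = 0.026). Without adjustment, 6 passed limma and 5 the methods' t-test. All 9 members listed as decreased had a mean below 0 in HBM + S, with a median of -1.28 in PPC + S and -0.28 in HBM + S. MHC class I antigen, which presents peptides on the cell surface, was at -2.35, -2.51, -0.56 and -2.27 in PPC + S fish and at -0.98, 0.55, -1.28 and -0.86 in HBM + S fish. The groups overlapped (-1.28 ± 0.53, adjusted p = 0.25). The MHC class I probe found by its accession number overlapped too, with -0.53, -5.02, -2.17 and -3.0 in PPC + S fish and 0.55, -0.85, 1.18 and -3.04 in HBM + S fish. The GTPase similar to very large inducible GTPase 1 differed by -1.46 (adjusted p = 0.30), receptor-transporting protein 3 by -1.53 (adjusted p = 0.10) and the kinase Jak1, which relays interferon signals, by 1.22 (adjusted p = 0.058).

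**Figure D2:**
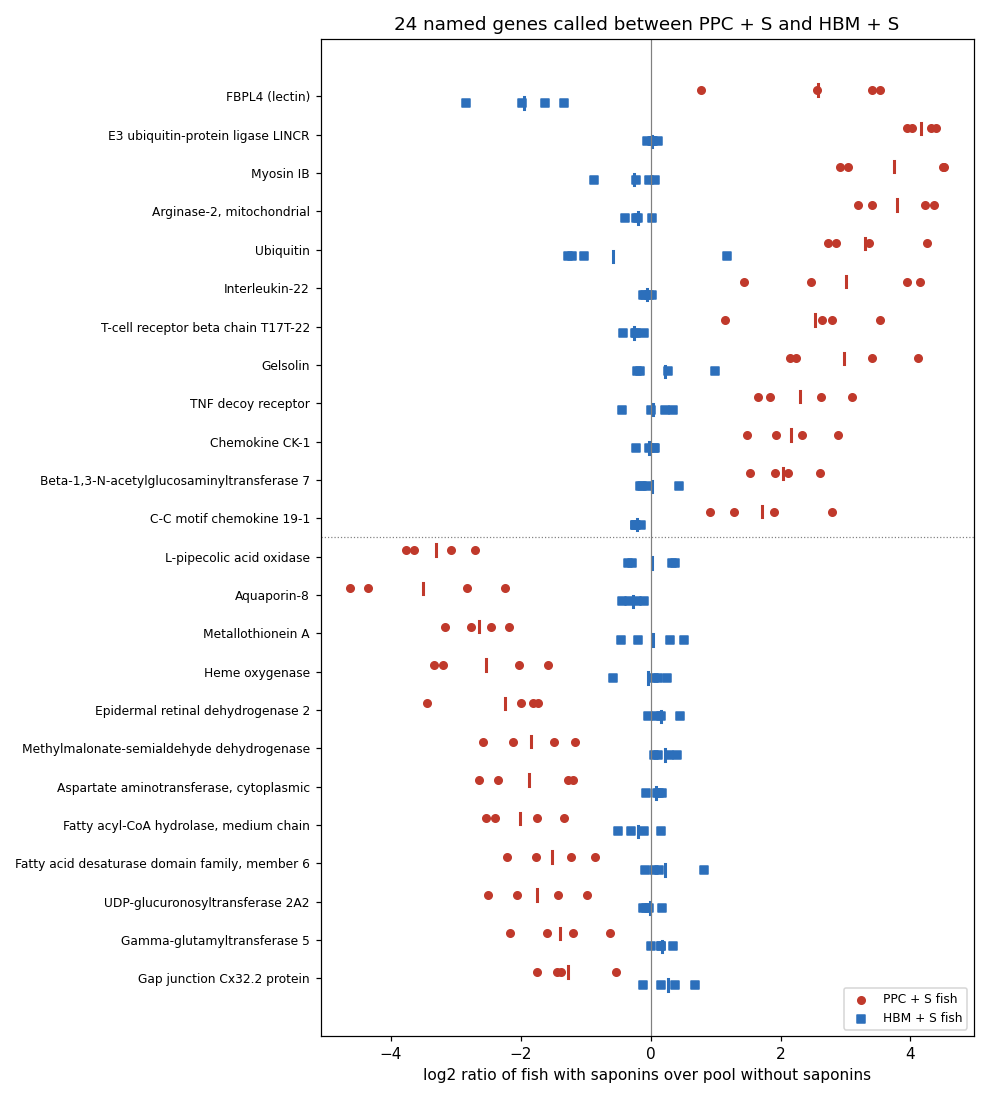
Log2 ratio over the pool in each fish (horizontal axis) for the 12 named genes with the largest positive and the 12 with the largest negative difference among those called; red circles are PPC + S fish, blue squares HBM + S fish, and short bars the means of 4 fish. Only genes without overlap between the groups were eligible. FBPL4 has all its HBM + S fish well below 0, from -2.84 to -1.33, while ubiquitin's run from -1.27 to 1.18.

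Genes of the oxidative burst and of protection against free radicals were called in both directions, 3 of 21 higher and 5 lower in PPC + S. Arginase-2, the mitochondrial enzyme that splits arginine into ornithine and urea, was at 3.19, 4.37, 3.41 and 4.23 in PPC + S fish and at -0.22, -0.40, 0.02 and -0.19 in HBM + S fish. The groups lay far apart (4.0 ± 0.27, adjusted p = 0.0034). Ornithine decarboxylase 1, which turns ornithine into putrescine, was at 0.68, 0.47, 0.63 and 1.33 in PPC + S fish and at -0.72, -0.47, -1.06 and -0.22 in HBM + S fish (1.39, adjusted p = 0.037). The nonspecific 5-aminolevulinate synthase, the first enzyme of heme synthesis, was at 1.19, 1.79, 2.15 and 2.00 in PPC + S fish and at 0.17, -0.19, 0.27 and -0.12 in HBM + S fish (1.75 ± 0.21, adjusted p = 0.015).

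The 5 members called lower included metallothionein and heme oxygenase. Metallothionein A, which binds zinc and copper, was at -2.19, -2.77, -2.46 and -3.16 in PPC + S fish and at 0.29, -0.20, 0.52 and -0.46 in HBM + S fish (-2.68 ± 0.27, adjusted p = 0.0076). Heme oxygenase, which breaks heme down, was at -2.02, -3.20, -1.58 and -3.33 in PPC + S fish and at -0.58, 0.05, 0.11 and 0.24 in HBM + S fish (-2.49 ± 0.41, adjusted p = 0.037). Neither gene had overlapping groups, and the middle subunit of ferritin, the iron store, differed by -1.46 (adjusted p = 0.0062). The NADPH oxidase subunits of phagocytes did not pass the test. Cytochrome b558 alpha-subunit differed by 2.30 (adjusted p = 0.051) and neutrophil cytosolic factor 1 by 2.09, with 1.16, 2.90, 0.01 and 4.17 in PPC + S fish and 0.06, -0.86, 0.52 and 0.19 in HBM + S fish (adjusted p = 0.24). High affinity copper uptake protein 1 differed by -1.52 (adjusted p = 0.11).

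Cellular stress genes were called at 3 of 4 members, all higher in PPC + S. Ubiquitin, the tag for protein breakdown, was at 2.74, 4.25, 2.86 and 3.36 in PPC + S fish and at -1.03, -1.21, 1.18 and -1.27 in HBM + S fish. One HBM + S fish lay above its pool and 3 below, yet all were under the PPC + S fish (3.89 ± 0.59, 14.8-fold, adjusted p = 0.029). The chaperones heat shock cognate 70 kDa protein and heat shock cognate 71 kDa protein differed by 1.83 ± 0.27 (adjusted p = 0.027) and 1.71 ± 0.21 (adjusted p = 0.016). The mitochondrial chaperone hsp60 overlapped between the groups (0.88 ± 0.76, adjusted p = 0.63).

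The cytoskeleton, adhesion and glycan genes had 3 calls higher and 2 lower among 22 members (11 with the block). Myosin IB, a motor that ties membranes to actin, was at 2.92, 4.51, 3.04 and 4.50 in PPC + S fish and at -0.03, -0.23, 0.07 and -0.87 in HBM + S fish (4.01 ± 0.43, 16.1-fold, adjusted p = 0.0087). Beta-1,3-N-acetylglucosaminyltransferase 7, which extends sugar chains, was at 1.91, 2.61, 1.53 and 2.12 in PPC + S fish and at -0.13, -0.16, 0.43 and -0.04 in HBM + S fish (2.02 ± 0.24, adjusted p = 0.012). Gap junction Cx32.2 protein, a channel between neighbouring cells, was at -0.54, -1.44, -1.38 and -1.76 in PPC + S fish and at 0.68, -0.11, 0.37 and 0.15 in HBM + S fish (-1.55 ± 0.27, adjusted p = 0.043).

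Enzymes that break down sugar chains or sialic acid had lower means in PPC + S without passing the test. With orientation as a block, each of these enzymes given here was called (adjusted p from 0.0094 to 0.017). Alpha-mannosidase 2B1 differed by -2.35 (adjusted p = 0.17), N-acetylneuraminate lyase, which degrades sialic acid, by -1.88 (adjusted p = 0.11), the beta chain of beta-hexosaminidase by -1.70 (adjusted p = 0.13, with the block 0.035) and N-acetylglucosamine-6-sulfatase by -1.54 (adjusted p = 0.073, with the block 0.043). Gelsolin, which cuts actin filaments and stands in the exocytosis group, was at 2.14, 3.41, 2.23 and 4.12 in PPC + S fish and at 0.26, -0.21, 0.99 and -0.16 in HBM + S fish. It was the single call among 4 exocytosis members (2.76 ± 0.48, adjusted p = 0.041), and with the block it missed the threshold (adjusted p = 0.057). The other 3 members, signal recognition particle receptor, exosome exonuclease RRP42 and exosome component Rrp46, differed by 1.23, 0.64 and 0.53 (adjusted p = 0.085, 0.12 and 0.16).

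Amino acid metabolism had 5 calls among 22 members, all lower. With the block 10 were lower and 1 was higher, arginine N-methyltransferase 3, which methylates arginine in proteins (1.09, adjusted p = 0.055, with the block 0.044). The 21 members listed as decreased had a median of -1.40 in PPC + S and 0.01 in HBM + S. In HBM + S, 10 of these 21 had a mean below 0. L-pipecolic acid oxidase, a peroxisomal enzyme of lysine breakdown in mammals, was at -3.08, -3.77, -2.71 and -3.65 in PPC + S fish and at -0.28, 0.38, -0.35 and 0.32 in HBM + S fish (-3.32 ± 0.28, adjusted p = 0.0044). Its mean was 0.02 in HBM + S fish, -1.03 in corn gluten, 0.11 in rapeseed meal and -1.09 in sunflower meal fish with saponins.

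Methylmalonate-semialdehyde dehydrogenase, an enzyme of valine breakdown, was at -1.16, -2.12, -1.49 and -2.59 in PPC + S fish and at 0.40, 0.05, 0.12 and 0.29 in HBM + S fish (-2.05 ± 0.29, adjusted p = 0.025). Cytoplasmic aspartate aminotransferase, which moves amino groups, was at -1.28, -2.35, -1.20 and -2.65 in PPC + S fish and at 0.09, 0.17, 0.12 and -0.08 in HBM + S fish (-1.95 ± 0.33, adjusted p = 0.037). Gamma-glutamyltransferase 5, which cleaves gamma-glutamyl bonds, was at -0.63, -1.6, -1.2 and -2.17 in PPC + S fish and at 0.16, 0.01, 0.34 and 0.16 in HBM + S fish (-1.57 ± 0.29, adjusted p = 0.049). In the first and the last of these genes, all PPC + S fish were below their pool and all HBM + S fish above theirs.

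Cysteine dioxygenase type 1, the enzyme that oxidises cysteine, had the lowest PPC + S mean of the named genes but was not called. PPC + S fish were at -4.61, -6.05, -5.0 and -5.96, and HBM + S fish at -0.71, -0.32, -4.30 and 0.82. The groups did not overlap, but HBM + S fish 3 lay close to the PPC + S fish (-4.28 ± 1.0, adjusted p = 0.080). Guanidinoacetate N-methyltransferase, which makes creatine, likewise had 1 low HBM + S fish, with -2.74, -2.82, -2.25 and -3.5 in PPC + S fish and 1.75, 0.16, -3.18 and 0.26 in HBM + S fish, which overlapped (-2.58, adjusted p = 0.19). Ammonium transporter Rh type B differed by -1.78 (adjusted p = 0.20) and 4-aminobutyrate aminotransferase by -1.70 (adjusted p = 0.077, with the block 0.031).

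Lipid and steroid metabolism, the largest group, had 6 calls among 39 members (14 with the block), all lower. Its 38 decreased members had a median of -1.16 in PPC + S and -0.03 in HBM + S. Epidermal retinal dehydrogenase 2, an enzyme of retinoid metabolism, was at -1.99, -1.81, -1.73 and -3.44 in PPC + S fish and at -0.04, 0.09, 0.16 and 0.45 in HBM + S fish (-2.41 ± 0.37, adjusted p = 0.029). Medium chain fatty acyl-CoA hydrolase, an enzyme of fatty acid metabolism, was at -1.33, -2.54, -1.76 and -2.40 in PPC + S fish and at -0.30, -0.11, 0.16 and -0.51 in HBM + S fish (-1.82 ± 0.28, adjusted p = 0.031). Fatty acid desaturase domain family member 6 was at -0.85, -2.21, -1.23 and -1.77 in PPC + S fish and at 0.81, -0.09, 0.04 and 0.13 in HBM + S fish (-1.74 ± 0.32, adjusted p = 0.048). The groups were apart in each of these genes.

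Genes of fat absorption and others of the group lay lower on average in PPC + S without passing the test. With orientation as a block, each gene given here was called (adjusted p from 0.0083 to 0.029). Intestinal fatty acid-binding protein, which carries fatty acids in enterocytes, was at -1.85, -2.85, -1.73 and -3.77 in PPC + S fish and at -0.23, -0.38, -0.94 and 0.55 in HBM + S fish (-2.30 ± 0.49, adjusted p = 0.066). Apolipoprotein A-I-2, a lipoprotein component, differed by -1.87 (adjusted p = 0.13), N-acylsphingosine amidohydrolase 2, a ceramidase, by -2.31 (adjusted p = 0.058) and hydroxyacid oxidase 2, a peroxisomal enzyme, by -1.90 (adjusted p = 0.12, with the block 0.035).

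Transporters had 1 call among 21 members (7 with the block), although the 17 decreased members had a median of -1.75 in PPC + S and -0.16 in HBM + S. The call was aquaporin-8, a water channel, at -2.83, -4.35, -2.25 and -4.63 in PPC + S fish and at -0.21, -0.10, -0.33 and -0.45 in HBM + S fish (-3.24 ± 0.51, 9.47-fold lower, adjusted p = 0.033). The sodium-dependent neutral amino acid transporter B0 was at -1.98, -5.16, -1.41 and -3.81 in PPC + S fish and at -0.31, -0.21, -0.66 and 0.02 in HBM + S fish, apart but not called (-2.80 ± 0.76, adjusted p = 0.11). The sulfate transporter had 2 probes, neither called, with differences of -1.96 at the probe matched by value (adjusted p = 0.065, with the block 0.015) and -1.78 at the probe found by accession (adjusted p = 0.13, with the block 0.094). A sodium-dependent phosphate transporter differed by -2.08 (adjusted p = 0.22) and solute carrier family 13 member 3, a dicarboxylate carrier, by -2.02 (adjusted p = 0.15).

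The published group of proteases, which also holds protease inhibitors, had 1 call higher and 1 lower among 16 members (6 with the block). Cathepsin K, a collagen-degrading protease, differed by 1.02 (adjusted p = 0.045) and pancreatic secretory trypsin inhibitor by -1.06 (adjusted p = 0.027). Metalloproteinase inhibitor 3 was at -2.03, -4.70, -1.55 and -4.16 in PPC + S fish and at -0.25, 0.35, -1.14 and 0.92 in HBM + S fish, apart but not called (-3.08 ± 0.77, adjusted p = 0.093). Cathepsin L.1, a lysosomal protease, differed by -2.43 (adjusted p = 0.10). Lactase-phlorizin hydrolase, a disaccharidase of the brush border, had overlapping groups, with -2.16, -3.85, -2.77 and -3.09 in PPC + S fish and -2.23, 0.70, -1.48 and -0.35 in HBM + S fish (-2.13, adjusted p = 0.13). The serine carboxypeptidase CPVL differed by -1.86 (adjusted p = 0.076, with the block 0.044).

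Xenobiotic metabolism had 3 calls lower among 18 members (7 with the block). UDP-glucuronosyltransferase 2A2, which conjugates compounds with glucuronic acid, was at -1.42, -2.05, -0.98 and -2.51 in PPC + S fish and at -0.12, 0.17, -0.08 and -0.02 in HBM + S fish (-1.73 ± 0.30, adjusted p = 0.041). Cytochrome P450 2M1, an oxidising enzyme of fish, was at -2.4, -2.52, -2.59 and -1.83 in PPC + S fish and spread widely in HBM + S fish, at 1.73, -1.06, -1.28 and 0.70 (-2.36, adjusted p = 0.11). CYP2K1v2 differed by -1.99 (adjusted p = 0.13), cytochrome P450 24A1, which degrades active vitamin D, by -1.92 (adjusted p = 0.076, with the block 0.0073) and arylamine N-acetyltransferase by -1.62 (adjusted p = 0.20).

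Growth factors and regulators had 1 call among 7 members (3 with the block). Transmembrane glycoprotein NMB was at -1.0, -1.15, -1.32 and -1.25 in PPC + S fish and at 0.05, 0.44, -0.18 and 0.07 in HBM + S fish (-1.28 ± 0.14, adjusted p = 0.0098). Class B bHLH protein 3, a transcription factor, differed by -1.99 (adjusted p = 0.10), fibroblast growth factor 12 by -1.63 (adjusted p = 0.12, with the block 0.036) and guanylin, an intestinal peptide that regulates salt and water secretion, by 1.38 (adjusted p = 0.065).

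Across the 14 published groups, 47 of 233 tested members were called (95 with the block), beside 1.12% of all probes (3.34% with the block). With orientation as a block 160 were called, beside 2.49% of all probes called higher and 3.21% called lower. These 160 include genes given above as not called, such as cysteine dioxygenase type 1 (adjusted p = 0.039) and guanylin (0.029). Nattectin (0.013), cytochrome b558 alpha-subunit (0.022), transporter B0 (0.038), metalloproteinase inhibitor 3 (0.047) and cathepsin L.1 (0.045) are others. Annexin A1 (0.079), complement factor D (0.060) and neutrophil cytosolic factor 1 (0.13) stayed uncalled. All 233 differences had the sign of the list, which the choice of the lists on PPC + S makes likely, and nothing is read from the shares called. The groups lay apart in 175 of the 232 members with 8 values, beside 12.4% of all such probes. In HBM + S, 8 of 233 had a mean beyond 1.6-fold, beside 124 of all 18069 probes, and 6 of the 8 had the sign of the list.

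**Figure D3:**
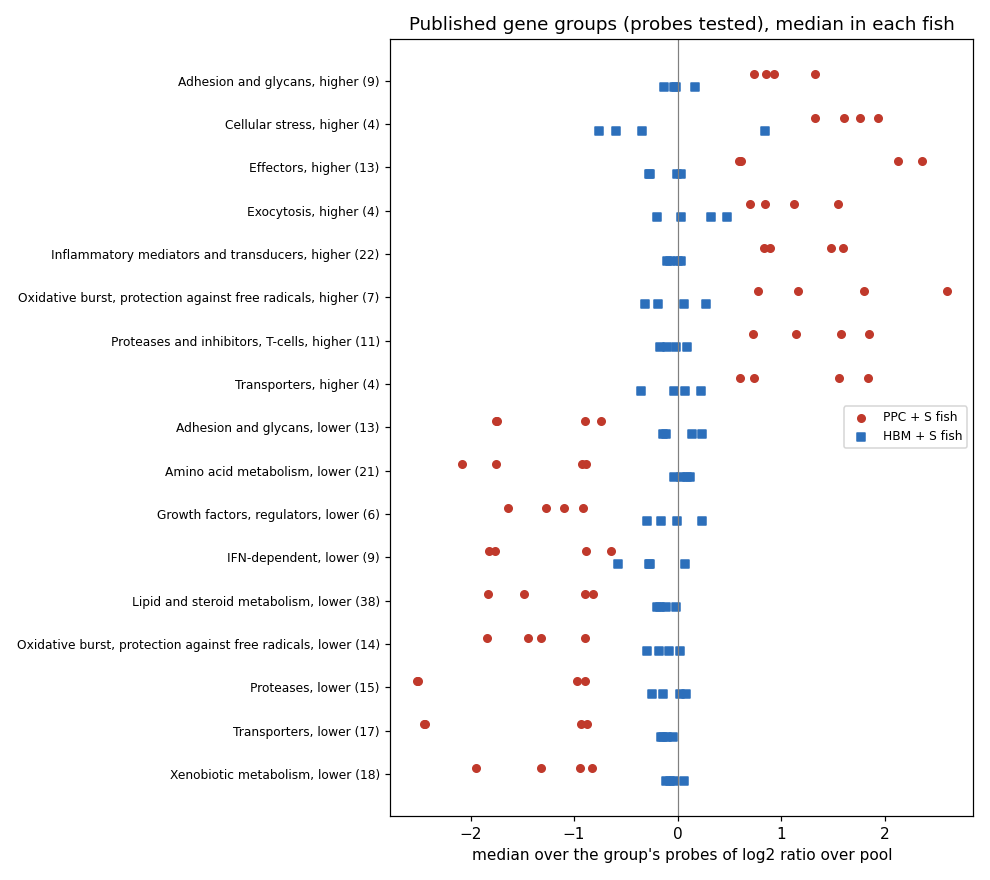
Median log2 ratio over the pool across the tested probes of each published group in each fish (horizontal axis), for group parts with 4 or more probes, split by the direction the study listed (number of probes in parentheses); red circles are PPC + S fish and blue squares HBM + S fish. The PPC + S medians for proteases listed as lower run from -2.52 to -0.90 and the HBM + S medians from -0.25 to 0.08.

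Cell type markers carry a name only where they stand in the lists chosen on PPC + S. Of 8 enterocyte markers 6 were named, by 7 probes, and each of the 7 was above background on every array of both diets, in either channel. The mean ratio over these probes was between -2.59 and -1.32 in PPC + S fish and between -0.71 and 0.23 in HBM + S fish. None was called in limma, while 7 passed limma and 6 the methods' t-test without adjustment. Of all 18069 probes tested, 1342 and 1083 did so. Of 6 neutrophil and macrophage markers 5 were named. Their mean was between 0.68 and 3.06 in PPC + S fish and between -0.50 and 0.52 in HBM + S fish. None was called in limma, while 5 passed limma and 2 the methods' t-test without adjustment. Of 4 T cell markers 2 were named and both were called, beside 1.12% of all probes. Both were listed as increased on PPC + S, so nothing is read from this count. Markers of goblet cells, B cells, pancreas, smooth muscle, erythrocytes and liver carry no name here. In whole tissue, fewer cells of a type and less RNA per cell cannot be told apart, and the part of cell composition in the group results was not tested.

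On the horse bean side alone, 2 of 18288 probes differed from the pool (0.0109%), both lower, and neither has a name. They were singled out after their values were seen. Probe Ssa#CA055701 was at -1.07, -0.68, -0.98 and -1.30 in PPC + S fish and at -1.84, -1.86, -1.76 and -1.56 in HBM + S fish (HBM + S mean -1.76 ± 0.14, SD, n = 4, adjusted p = 0.024 in limma). Both diets were below their pools, and the difference of 0.75 was called (adjusted p = 0.049), but not with the block (adjusted p = 0.064). The other probe, Ssa#GRASP209736671, was not well above background in the fish's channel on any HBM + S array, and was at least 5.16-fold lower in HBM + S fish than in the pool (adjusted p = 0.024). This bound uses channel means after loess and quantile scaling of the average intensities and is open to dye bias. Without adjustment limma passed 74 probes and the methods' t-test 28. Without any 1 of the HBM + S fish, limma called none. With the dyes as stated 122 probes were called, 90 higher and 32 lower.

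The 3 called probes with only the HBM + S mean beyond 1.6-fold have no name, were singled out after their values were seen, and lay above the pool in HBM + S. Ssa#S35676574 was at -0.60, 0.03, -0.28 and -0.83 in PPC + S fish and at 1.05, 1.26, 1.11 and 2.02 in HBM + S fish (-1.78 ± 0.26, adjusted p = 0.026). Ssa#S30286041 was at -0.35, -0.37, -0.51 and -0.66 in PPC + S fish and at 1.24, 0.55, 0.86 and 0.83 in HBM + S fish (-1.34 ± 0.15, adjusted p = 0.010). Ssa#DW567199 averaged -0.17 in PPC + S fish and 0.81 in HBM + S fish (-0.98 ± 0.15, adjusted p = 0.027). All 4 HBM + S fish were above their pool and above every PPC + S fish in each. The 3 probes with opposite means were FBPL4, jun-B and Ssa#S31963958. Of the 2 with means of the same sign, Ssa#CA055701 is given above, and Ssa#GRASP209154617 averaged -1.9 in PPC + S fish and -0.75 in HBM + S fish (-1.16 ± 0.19, adjusted p = 0.037).

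The 5 named genes with the HBM + S means farthest from 0 all lay below the pool, and none passed the test in HBM + S. Of all 233 members, 4 passed it without adjustment, beside 74 of all 18288 probes. FBPL4 averaged -1.95 ± 0.66 in HBM + S, against -1.58 in corn gluten, 0.71 in rapeseed meal and 0.23 in sunflower meal fish with saponins (adjusted p = 0.54 against the pool). Cysteine dioxygenase averaged -1.13 ± 2.21, Apolipoprotein A-II -0.86 ± 0.63, the very large inducible GTPase -0.85 ± 1.15 and lactase-phlorizin hydrolase -0.84 ± 1.28 (SD, n = 4 each). Apolipoprotein A-II, a lipoprotein component, was at -2.18, -2.46, -3.04 and -1.98 in PPC + S fish and at -1.45, -0.61, -1.30 and -0.10 in HBM + S fish (-1.55 ± 0.34, adjusted p = 0.072, with the block 0.034).

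Against the mean of the corn gluten, rapeseed meal and sunflower meal fish with saponins, HBM + S differed at 1 of 17961 probes (0.00557%). The unnamed probe Ssa#S32010836, singled out after its values were seen, averaged 0.02 in HBM + S, against -1.85, -0.08 and -1.51 in these diets in that order, a difference of 1.16 (adjusted p = 5.6e-05 in limma). None of the 203 probes called between PPC + S and HBM + S was called in this comparison. Without adjustment 7 of the 203 passed it, beside 55 of all 17961 probes. At the 203 probes the median size of the HBM + S difference from these diets was 0.16, beside 0.07 over all probes tested and 1.12 for the difference from PPC + S. The 203 were called for a large difference from PPC + S, so the 1.12 follows from that choice. The HBM + S mean enters both comparisons, so that choice can also raise the 7 and the 0.16. Nothing is read from the 7 or from the gap between 1.12 and 0.16.

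Among the 156 called probes without a name, 2 higher and 2 lower with the widest differences are given. Ssa#S31963958 had the largest difference of all called probes, with 4.28, 6.64, 4.36 and 6.62 in PPC + S fish and -1.56, -0.62, -0.12 and -0.86 in HBM + S fish (6.27 ± 0.63, adjusted p = 0.0076). Omy#S24636600 had 3.83, 4.30, 3.62 and 4.73 in PPC + S fish and -0.51, -1.07, 0.65 and -1.01 in HBM + S fish (4.61 ± 0.41, adjusted p = 0.0053). Ssa#KSS3392 was at -2.62, -2.56, -2.96 and -3.03 in PPC + S fish and at -0.34, -0.23, -0.34 and 0.36 in HBM + S fish (-2.66 ± 0.19, adjusted p = 0.0034). Ssa#S18840807 differed by -2.17 (adjusted p = 0.049, with the block 0.060). None of these groups overlapped, which was a condition of the choice.

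With orientation as a block, 1030 probes were called, 450 higher (2.49%) and 580 lower (3.21%), and all of the 203 were among them. Within the orientations, all 203 called differences had the same sign on fish 1 and 3 as on fish 2 and 4. This had to be so, because the groups did not overlap at any of the 203, and nothing is read from it. The median size of these differences was 0.97 on fish 1 and 3 and 1.30 on fish 2 and 4. LINCR differed by 4.22 on fish 1 and 3 and by 4.06 on fish 2 and 4, and metallothionein A by -2.73 and -2.64. Gelsolin, IL-22 and heme oxygenase had the wider gaps, with 1.56 and 3.95, 1.96 and 4.15, and -1.57 and -3.41 for fish 1 and 3 and fish 2 and 4 in turn.

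**Figure D4:**
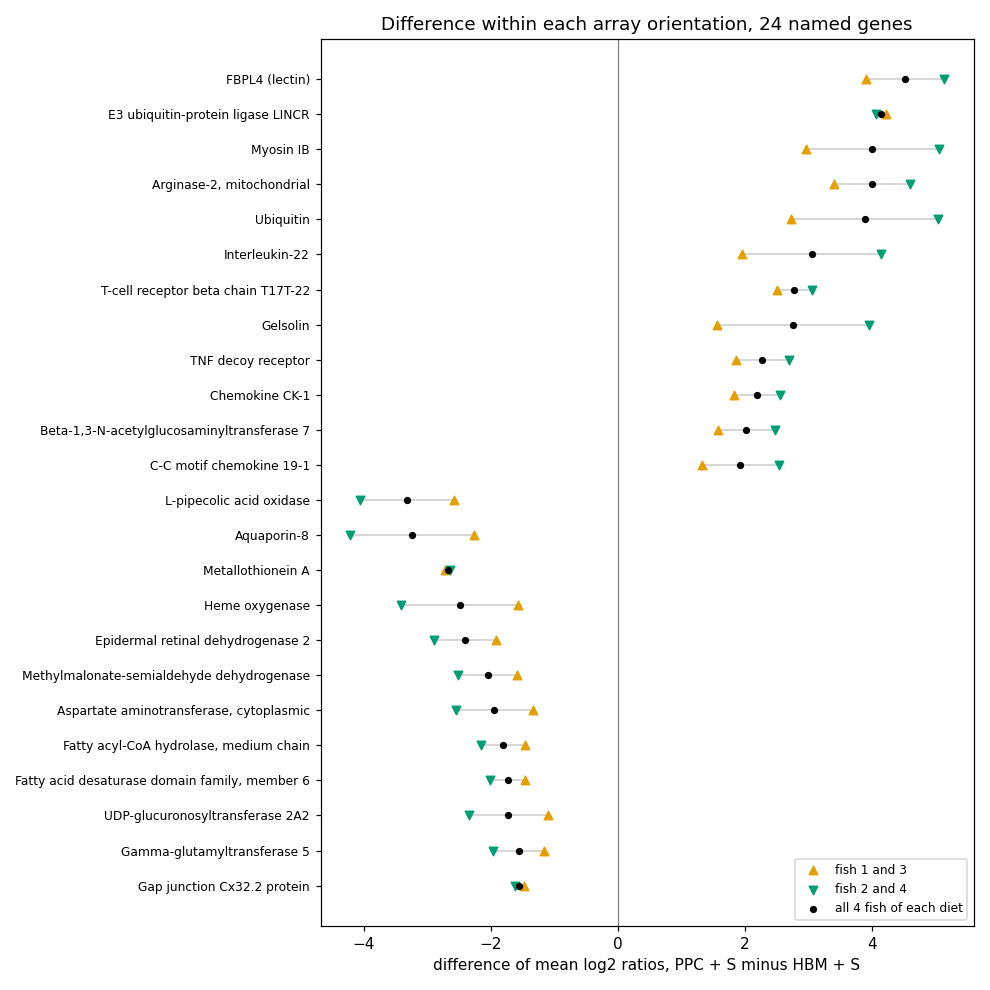
Difference of the mean log2 ratios, PPC + S minus HBM + S (horizontal axis), for the 24 named genes on all 4 fish of each diet (black dots), on fish 1 and 3 (orange triangles) and on fish 2 and 4 (green triangles). All 3 values of each gene lie on the same side of 0, which follows from groups that do not overlap. The fish 2 and 4 values are mostly farther from 0, as for ubiquitin with 2.72 and 5.05.

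Leaving out 1 fish moved most calls near the threshold. Of the 46 called probes described here, 14 kept their call without each of the 8 fish in turn. These were LINCR, myosin IB, arginase-2, beta-1,3-N-acetylglucosaminyltransferase 7, L-pipecolic acid oxidase, metallothionein A, the middle subunit of ferritin, NF-kappa-B p100, heat shock cognate 71 kDa protein, transmembrane glycoprotein NMB and the unnamed Ssa#S31963958, Omy#S24636600, Ssa#KSS3392 and Ssa#S30286041. The other 32 lost it without at least 1 fish, with adjusted p up to 0.14. The losses were 18 without PPC + S fish 1, 31 without fish 2, 5 without fish 3 and 25 without fish 4, and 30, 29, 26 and 24 without HBM + S fish 1 to 4. No difference changed its sign, which was fixed in advance because the groups did not overlap at these called probes.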

How the data were processed

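For each spot of 2-colour Agilent arrays, the authors deposited a log2 ratio of the fish to the pool after Lowess normalization, with 44061 spots with 21322 probes in 2 spots each, and 25.9% of the probe spots were empty in at least 1 of the 8 columns used. The authors also deposited the scanner's median intensity of each spot and its background, extracted with Feature Extraction 10.7.1.1 per the file headers and 9.6.1 per the submitters' processing notes, while the methods name another program. The spots of a probe were averaged here, and probes with at least 3 values in each group were fitted in R (version 4.3.3) with the packages limma, version 3.58.1, and data.table, version 1.17.8, and the fit was tested on simulated data.

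PPC + S was set against HBM + S, HBM + S against its pool, and HBM + S against the mean of 3 other diets. Each processed column was tied to 1 scanner array of its diet; 4 of the 8 columns belong to an array of another fish number. Nothing says whether numbers mark shared handling. Deviations of same-numbered fish from their group means correlated at 0.19 to 0.46 in all 4 pairs, so the number was also fitted as a block. Fish of equal number share their orientation, and other pairs of equal orientation correlated at 0.13 to 0.35.

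Names came from published lists matched by fold change and standard error within 0.0051, or from accession numbers, since no probe name was among the 333059 accessions of the reference table (0 matched). The genes named are the 12 called named probes with the largest difference in each direction and groups apart, up to 4 more per published group, those with an accession, the 5 with the HBM + S mean farthest from 0, and 2 unnamed probes per direction. Further genes were chosen after their values were seen. The members and lists were chosen with earlier results of these data known.

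The alternatives concern the scanner intensities (normexp with an offset of 50, then loess), normalization, empty values, the test, the fold limit, blocks, array weights, array direction and each fish left out. Fits with the dyes as stated and within orientations were added after seeing the data. qPCR and histology were not analysed here. Figures were drawn with Python 3.11.15, pandas 2.3.3 and matplotlib 3.10.9.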

Additional observations from a re-analysis of the deposited data

Results flagged for a closer look

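The difference between the diets in their saponin ratio was past the threshold at 203 probes in limma. For 7 of the 37 named genes that are called and described above, all PPC + S fish lay on one side of their pool and all HBM + S fish on the other. They were FBPL4 (4.52), T-cell receptor beta chain T17T-22 (2.78), C-C motif chemokine 19-1 (1.93), transcription factor jun-B (1.79) and ornithine decarboxylase 1 (1.39), higher in PPC + S, and methylmalonate-semialdehyde dehydrogenase (-2.05) and gamma-glutamyltransferase 5 (-1.57), lower in PPC + S. These differences were tested, with the adjusted p given above.

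A fish far from the other 3 of its diet was found in 9 of 201 groups of 4, and chance gives about 1 in 20. In PPC + S these were the lowest fish for epidermal retinal dehydrogenase 2 (-3.44) and suppressor of cytokine signaling 1 (0.76), and the highest fish for MHC class I antigen (-0.56) and Ssa#GRASP209736671 (0.77). In HBM + S they were the highest fish for ubiquitin (1.18), transcription factor jun-B (-0.45) and Ssa#KSS3392 (0.36), and the lowest fish for the kinase Jak1 (-0.75) and collagenase 3 (-1.26). Their causes were not tested.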

How the results depend on the processing

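The count of 203 probes between PPC + S and HBM + S stayed within 1.5 times under the scanner intensities (212), median centring, both filters on empty values, both spots required, array weights and no fold limit. It was 340 after quantile normalization (140 higher and 200 lower, so that 58.8% were lower against 46.8% before), 119 at 2-fold, 1342 in limma and 1083 in the methods' t-test without adjustment, 31 in that test with adjustment, 604 with the replicate block, 1030 with orientation as a block, 1017 in a fit of all 20 arrays, 515 on fish 1 and 3 alone, 1931 on fish 2 and 4 alone, and 0 with the dyes as stated (125 without adjustment). Without 1 fish it ranged from 47 to 337: 113, 47, 337 and 76 without PPC + S fish 1 to 4, and 64, 77, 76 and 84 without HBM + S fish 1 to 4. Of the 203 probes, 169 were among the 212 called with the scanner intensities. Calls lost there include gap junction Cx32.2 protein (adjusted p = 0.098 in limma) and C-C motif chemokine 19-1 (0.059).

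The count of 2 probes in HBM + S against its pool was 0 after quantile normalization, 0 in the methods' t-test with adjustment, 1 with both spots required, 1 with orientation as a block, 28 and 74 without adjustment in the methods' t-test and in limma, and 122 with the dyes as stated (90 higher and 32 lower). It was 0 without any 1 fish (68 to 133 in limma without adjustment). The single probe against the other diets stayed 1 under the replicate block, and was 39 and 55 without adjustment, 0 with the dyes as stated (44 without adjustment) and 1 to 2 without 1 fish, the 2 arising without corn gluten fish 2 or 4 or rapeseed fish 4.

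At called probes, where the groups did not overlap, leaving out a fish could not turn a sign. Signs turned only with the dyes as stated. There the differences were -0.079 for LINCR, 0.042 for metallothionein A, 0.029 for fibroblast growth factor 12, -0.36 for guanylin, -0.23 for annexin A1, 0.36 for cytochrome P450 2M1, 0.11 for cytochrome P450 24A1, 0.076 for MHC class I by accession, 0.058 for C-C motif chemokine 21, -0.15 for ornithine decarboxylase 1, 0.13 for Ssa#S30286041 and -0.024 for Ssa#CA055701. The HBM + S means were 0.29 for FBPL4, 1.38 for cysteine dioxygenase, 0.34 for the very large inducible GTPase, 1.01 for lactase-phlorizin hydrolase, 0.51 for apolipoprotein A-II and 0.043 for Ssa#CA055701. The replicate block took the call from 3 and gave it to 12 of 99 probes described, as printed beside them, and changed no other call among these 99. The cause of these shifts was not tested. Slide, tank, protein level, other feed ingredients and any saponins of the protein source itself limit the comparison. Dim probes such as interleukin-22 and cathelicidin in HBM + S limit single ratios.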
